A study of Mus musculus with 6 samples.

Results

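The genes of 9 secreted cytokines were examined in a mouse ILC2 line: Il4, Il5, Il13, Il9, Il3, Csf2, Il6, Il10 and Il2. They were chosen by name, as interleukins and GM-CSF that ILC2s can secrete, but with earlier results of these data known. All 9 were found among the 23185 named genes of the array, each with 1 probe set. Group 2 innate lymphoid cells (ILC2s) are tissue lymphocytes that lack rearranged antigen receptors and release type 2 cytokines when epithelial alarmins such as IL-33 reach them. The line came from C57BL/6J mice and grew in IL-2 and IL-33, each at 10 ng/ml, in both groups. It was transduced with a lentiviral CRISPR construct carrying GFP and a guide RNA, which was directed at Myc in one group and was a non-target control in the other. GFP-positive cells were sorted 6 days later, and total RNA was hybridised to 6 arrays, 3 per group. The labels do not say whether a group's arrays came from separate cultures or transductions, nor how many guides or clones were used, so every p-value here weighs a difference against the scatter among these arrays alone, and that scatter may be technical.

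Levels are the deposited RMA values on the log2 scale, given as mean ± SD (n = 3 arrays per group), and differences are the arrays labelled Myc knockout minus control, ± SE. A gene passed at an adjusted p under 0.05 in limma (Benjamini-Hochberg over all 23185 genes). Array medians lay between 3.27 and 3.34 and lower quartiles between 2.04 and 2.13, and a gene below the lower quartiles is called dim here. Myc, the targeted gene, averaged 9.33 ± 0.058 in controls and 9.69 ± 0.12 in the knockout-labelled group, a difference of 0.36 ± 0.080 that did not pass (limma's adjusted p = 0.127); it passed as higher in 1 of the 9 other settings that kept all arrays, the test of genes at or above the median gene (limma's adjusted p = 0.0487). Its mRNA was thus not lower where the label says knockout, and every direction below rests on the labels. The arrays measure mRNA and not protein, so this level cannot show whether MYC protein was lost.

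Each of these cytokines is a small secreted protein that acts through receptors on neighbouring cells. IL-5 drives the growth and survival of eosinophils, IL-13 and IL-4 share a receptor chain and induce mucus, smooth muscle and IgE responses, and IL-9 supports mast cells and ILC2s themselves. IL-3 and GM-CSF (Csf2) are myeloid growth factors whose receptors share a beta chain with that of IL-5, IL-6 and IL-10 are respectively inflammatory and regulatory cytokines, and IL-2 is a lymphocyte growth factor. Il4, Il13 and Il5 lie beside each other in the type 2 cytokine cluster, with Rad50 between Il13 and Il5.

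Il9 and Il5 rose in the arrays labelled Myc knockout, and 0 of the 9 genes fell. Il10 and Il13 had higher values on all 3 of those arrays than on any control without passing, and Il4, though well above the array medians, was level. Il6 lay just below the array medians and Il3, Csf2 and Il2 below every array's lower quartile. All 9 log2 differences were above 0, with a median of 0.14, against a median of 0.0077 and 12105 positive differences over all 23185 genes. The median of 0.14 is the value of Il3, a dim gene, and the signs of Il4, Csf2, Il6 and Il2 turned in other settings. The median of the 9 was 0.073 without control replicate 3 and 0.21 without control replicate 1. In total RNA of a culture, fewer cells transcribing a gene and less RNA per cell cannot be told apart.

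The 2 genes that passed stand against 0.254% of all genes that passed as higher and 0.198% that passed as lower. As the 9 were chosen with earlier results known, the shares given here describe the set and do not test it. Of the 5 cytokine genes whose mean over the 6 arrays was at or above the highest array median, 2 passed as higher, against 0.440% of the 11595 genes that bright. At an unadjusted p under 0.05, 4 of the 9 were higher, against 6.97% of all genes. The groups did not overlap, with the knockout-labelled arrays higher, for 4 of the 9 genes, against 9.25% of all genes, and for 4 of the 5 bright ones, against 10.8% of the bright genes.

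**Figure D1:**
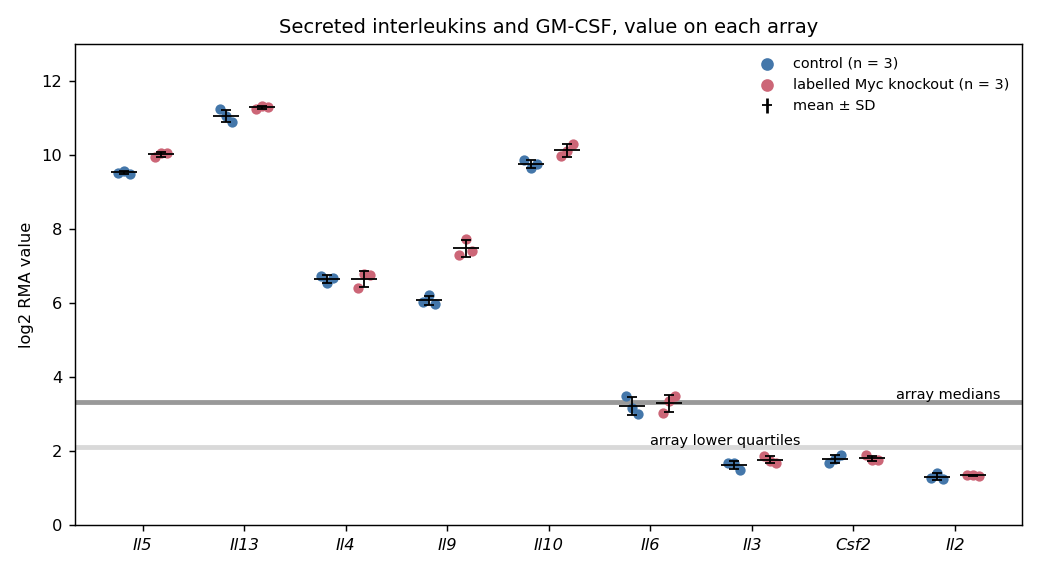
Log2 RMA value (vertical axis) of the 9 cytokine genes on each of the 3 control arrays and the 3 arrays labelled Myc knockout, with the mean ± SD of each group and grey bands for the range of the array medians and lower quartiles. Il5, Il13, Il9 and Il10 show no overlap between the groups, and Il3, Csf2 and Il2 sit below the lower quartiles.

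Il9 had the largest difference of the 9. Its log2 value was 6.03, 6.21 and 5.98 on the control arrays and 7.30, 7.74 and 7.40 on the arrays labelled Myc knockout. The lowest knockout-labelled value was therefore far above the highest control. The means of 6.07 ± 0.12 and 7.48 ± 0.23 differed by 1.41 ± 0.13, a 2.65-fold rise with a 95% confidence interval of 2.15 to 3.27 (limma's adjusted p = 0.0205).

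Il5 was at 9.51, 9.57 and 9.49 on the control arrays and at 9.94, 10.05 and 10.06 on the arrays labelled Myc knockout. Both groups were tight and well separated. From 9.53 ± 0.041 to 10.01 ± 0.063 it rose by 0.49 ± 0.061, or 1.40-fold with an interval of 1.27 to 1.55 (limma's adjusted p = 0.0386). After median centring of the arrays the difference was 0.46 and the call was lost (limma's adjusted p = 0.0522). When any 1 of the 6 arrays was left out, neither Il9 nor Il5 passed. Their differences then stayed between 1.28 and 1.50 for Il9 and between 0.47 and 0.52 for Il5, with limma's adjusted p from 0.0701 to 0.157 and from 0.0887 to 0.174. With 5 arrays limma called 0 to 2 genes as higher and 0 to 1 as lower in the whole table.

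Il13, the other main ILC2 effector cytokine, was at 11.23, 11.04 and 10.89 on control arrays, and the knockout-labelled ones gave 11.23, 11.33 and 11.30. The highest control and the lowest knockout-labelled array were almost equal. The controls spread more (11.05 ± 0.17) than the other group (11.29 ± 0.048), and the difference of 0.23 ± 0.095 did not pass (limma's adjusted p = 0.325, unadjusted p = 0.0461). Its 95% confidence interval, 0.0054 to 0.46, runs from near 0 to a value close to the difference of Il5. Without control replicate 3 the difference was 0.15 and without control replicate 1 it was 0.32.

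Il4 was at 6.74, 6.54 and 6.68 in controls and at 6.41, 6.79 and 6.76 in the arrays labelled Myc knockout, so the second group held both its lowest and its highest value. The difference was 0.0026 ± 0.12 with an interval from −0.28 to 0.28, and its sign turned under median centring (−0.023).

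**Figure D2:**
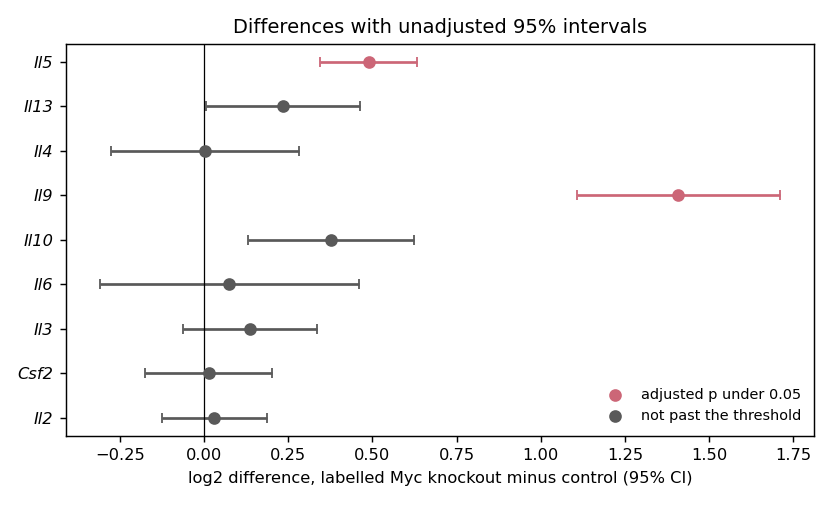
Log2 difference, arrays labelled Myc knockout minus control (horizontal axis), of each cytokine gene with its unadjusted 95% confidence interval from limma (3 arrays per group). Il9 at 1.41 and Il5 at 0.49 passed, the intervals of Il10 and Il13 lie above 0 without passing after adjustment, and the other 5 intervals include 0.

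Il10, the gene of a cytokine that restrains inflammation, was at 9.86, 9.65 and 9.74 in controls and at 9.96, 10.12 and 10.31 in the arrays labelled Myc knockout. The gap between the highest control and the lowest knockout-labelled array was narrow. The means, 9.75 ± 0.10 and 10.13 ± 0.17, differed by 0.38 ± 0.10, which did not pass over all genes (limma's adjusted p = 0.186, unadjusted p = 0.00921). The point estimate corresponds to a 1.30-fold difference, with an interval of 1.09 to 1.54. Its adjusted p ranged from 0.0806 to 0.305 in the settings that kept all 6 arrays, and its sign was positive in each of them and with any array left out, where the difference was 0.29 to 0.46.

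Il6 was at 3.48, 3.16 and 2.99 in controls and at 3.04, 3.35 and 3.48 in the arrays labelled Myc knockout. These ranges overlap almost fully. Its difference of 0.075 ± 0.16 has an interval of −0.31 to 0.46, and its mean over all arrays, 3.25, lies just below the array medians.

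The remaining 3 genes lay below every lower quartile. Il3 was at 1.62 ± 0.11 and 1.76 ± 0.097, Csf2 at 1.79 ± 0.11 and 1.80 ± 0.070, and Il2 at 1.31 ± 0.091 and 1.34 ± 0.011, in controls and knockout-labelled arrays respectively. Their differences of 0.14 ± 0.083, 0.014 ± 0.078 and 0.030 ± 0.065 did not pass (limma's adjusted p = 0.483, 0.950 and 0.856). At this brightness the arrays cannot show whether these transcripts changed.

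**Figure D3:**
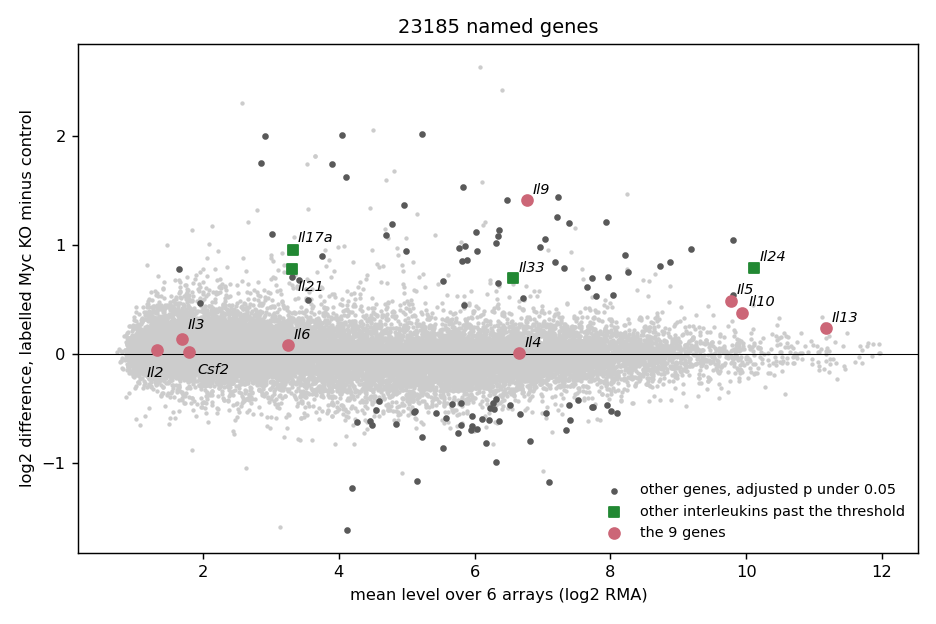
Mean log2 RMA level over 6 arrays (horizontal axis) against the log2 difference, arrays labelled Myc knockout minus control (vertical axis), for the 23185 named genes. The 9 cytokine genes are red, other interleukins past the threshold are green squares and other genes past it are dark grey. Il6, Il3, Csf2 and Il2 lie at the left, below the array medians.

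The differences of the 5 bright cytokine genes were set against each other in 10 pairs, as contrasts of 2 genes within each array, in which an offset common to an array cancels. The difference of Il9 exceeded that of Il5 by 0.92 ± 0.12, that of Il10 by 1.03 ± 0.19, that of Il13 by 1.17 ± 0.16 and that of Il4 by 1.41 ± 0.16. In each of these 4 pairs the within-array contrasts of the groups did not overlap. Il5 exceeded its cluster neighbours Il4 by 0.49 ± 0.12 and Il13 by 0.25 ± 0.10, again without overlap. Il10 and Il13 exceeded Il4 by 0.37 ± 0.075 and 0.23 ± 0.14 without overlap. Il5 and Il10 differed by 0.11 ± 0.10 and Il10 and Il13 by 0.14 ± 0.12, and in these 2 pairs the groups overlapped. In an exact permutation test, two-sided, p was 0.1 for each of the 8 pairs without overlap, the smallest that 3 against 3 arrays allow (adjusted 0.125 over the 10 pairs), and p was 0.3 for the other 2 (adjusted 0.300), so none of the 10 could pass. The contrast of Il4 minus Il13 depended on the setting. Its value of −0.23 became −0.16 under cyclic loess, where the groups overlapped (exact permutation p = 0.5), and was −0.13 when control replicate 3 was left out and −0.14 when knockout-labelled replicate 1 was (exact permutation p = 0.4 in each). Il5 minus Il13 was 0.16 without control replicate 1. Without knockout-labelled replicate 1, 2 or 3 it was 0.26, 0.26 and 0.24 (exact permutation p = 0.2 in each). Il4 minus Il10 was −0.36 without control replicate 3 (exact permutation p = 0.2). With any 1 array left out, Il5 minus Il10 ranged from 0.051 to 0.18 and Il13 minus Il10 from −0.22 to −0.060.

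The genes next to each cytokine gene on the chromosome were read from the same fit. In the type 2 cluster the order of measured genes is Kif3a, Il4, Il13, Rad50, Il5 and Irf1. Rad50, a DNA repair gene whose introns hold the cluster's locus control region, differed by −0.077 ± 0.061, the kinesin gene Kif3a by 0.087 ± 0.065 and Irf1, an interferon-induced transcription factor gene, by −0.13 ± 0.093. None of these 3 passed (limma's adjusted p = 0.587, 0.568 and 0.540), so within this stretch Il5 alone passed. Beside Il9, the transporter gene Slc25a48 and Fbxl21 differed by 0.0061 ± 0.075 and 0.025 ± 0.17, both below the array medians. Next to Il3 and Csf2, Acsl6 and the noncoding gene 4933405E24Rik differed by −0.0087 ± 0.096 and −0.025 ± 0.070. Around Il6, the chaperone gene Dnajb6 differed by 0.18 ± 0.060 and the noncoding gene A230098N10Rik by −0.077 ± 0.058, and neither passed (limma's adjusted p = 0.248 and 0.567).

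The neighbours of Il10 and Il2 are cytokine genes themselves. Il10 lies in a cluster of its own family, in the order Il24, Il20, Il19, Il10 and Mapkapk2. Il24, an IL-10 family cytokine that signals to epithelia, was at 9.82, 9.71 and 9.64 in controls and at 10.38, 10.50 and 10.64 in the arrays labelled Myc knockout. The groups were clearly apart, and Il24 rose 1.73-fold (0.79 ± 0.088, limma's adjusted p = 0.0313). Il20 and Il19, both below the array medians, differed by 0.12 ± 0.080 and 0.17 ± 0.098, and Mapkapk2, a kinase gene, by 0.031 ± 0.060, without passing (limma's adjusted p = 0.514, 0.471 and 0.838). Beside Il2, Il21 rose from 2.92 ± 0.16 to 3.70 ± 0.11 (0.78 ± 0.10, limma's adjusted p = 0.0419). Il21 encodes a cytokine of helper T cells, its control level was below the array medians and its fold is therefore uncertain. On the other side of Il2, Adad1 differed by 0.20 ± 0.10 at a level below the lower quartiles (limma's adjusted p = 0.404).

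**Figure D4:**
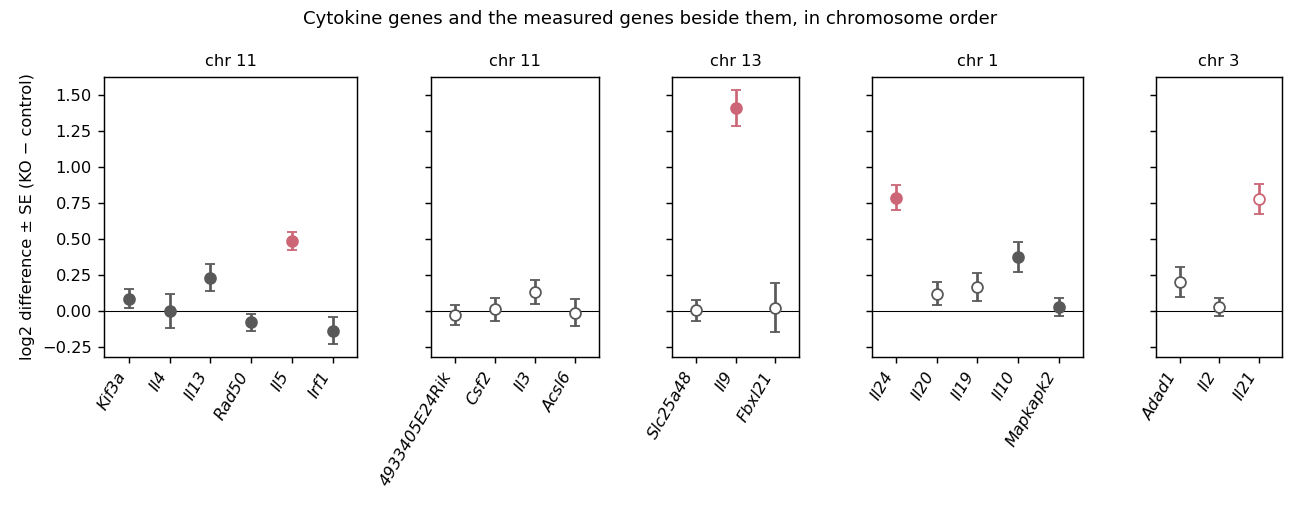
Log2 difference ± SE, arrays labelled Myc knockout minus control, for cytokine genes and the measured genes beside them, in chromosome order without scale and with 1 panel per stretch. Red marks genes past the threshold and open symbols genes whose mean lies below the highest array median; Il5, Il9, Il24 and Il21 passed, and the genes between or beside them did not.

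Promoter windows are shown for Il9 and Il5, which passed, and for Il13 and Il4, which lie in the same cluster as Il5 and did not. Each is the 250 bases before the transcript start in RefSeq (build GRCm38.p6), written from 5′ to 3′ on the gene's strand: chr13:56482258-56482507 on the minus strand for Il9, chr11:53720544-53720793 on the plus strand for Il5, chr11:53634703-53634952 on the minus strand for Il13 and chr11:53618666-53618915 on the minus strand for Il4. Such a window was present for 8 of the 9 genes. Capitals mark matches on either strand to 6 motifs, which may overlap. CACGTG is the E-box bound by dimers of MYC and its partner MAX. GATAA is one form of the GATA core recognised by GATA factors such as the product of Gata3. TGANTCA is recognised by AP-1 dimers of the Jun and Fos families. GGAAA is the core recognised by NFAT, which calcium signals bring to the nucleus. TTCNNNGAA is recognised by STAT proteins downstream of cytokine receptors. TATAAA is the core promoter's TATA box.
Il9: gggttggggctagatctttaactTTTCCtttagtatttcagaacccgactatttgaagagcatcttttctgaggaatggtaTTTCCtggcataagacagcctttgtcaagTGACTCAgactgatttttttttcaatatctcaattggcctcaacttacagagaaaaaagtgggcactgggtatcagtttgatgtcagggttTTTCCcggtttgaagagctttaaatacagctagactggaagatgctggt
Il5: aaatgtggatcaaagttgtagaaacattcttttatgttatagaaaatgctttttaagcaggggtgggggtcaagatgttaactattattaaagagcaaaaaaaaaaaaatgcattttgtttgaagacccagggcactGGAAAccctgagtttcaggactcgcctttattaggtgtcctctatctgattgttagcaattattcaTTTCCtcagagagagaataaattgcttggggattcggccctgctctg
Il13: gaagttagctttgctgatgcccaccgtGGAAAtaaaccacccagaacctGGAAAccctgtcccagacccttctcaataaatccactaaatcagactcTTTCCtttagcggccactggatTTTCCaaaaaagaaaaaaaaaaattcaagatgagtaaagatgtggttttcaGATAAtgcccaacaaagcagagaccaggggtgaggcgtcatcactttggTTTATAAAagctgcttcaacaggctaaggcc
Il4: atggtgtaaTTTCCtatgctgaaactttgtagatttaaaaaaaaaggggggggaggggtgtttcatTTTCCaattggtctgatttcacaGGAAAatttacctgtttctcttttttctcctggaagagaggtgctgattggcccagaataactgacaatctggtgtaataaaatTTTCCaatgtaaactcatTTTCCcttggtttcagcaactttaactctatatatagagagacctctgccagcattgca

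The E-box CACGTG was in 0 of the 8 windows, against 6.02% of 32851 windows of the same length over all RefSeq starts, and the STAT motif also in 0, against 7.02%. GGAAA was in all 8, with 3 matches at Il9, 2 at Il5, 4 at Il13 and 5 at Il4, but 55.6% of all windows hold it. The AP-1 letters were in 2 of the 8 (Il9 and Il6), against 6.75%, with the match at Il9 lying 140 to 134 bases before the start. GATAA was in 4 (Il13, Il3, Csf2 and Il6), against 22.6%, and TATAAA in 2 (Il13 and Il2), against 12.4%. Of the 6 motifs searched, Il9 thus held AP-1 and GGAAA letters and Il5 GGAAA letters alone. The search took only the form GATAA, and other forms of the GATA core were not counted. The shorter letters GATA, read as tatc on the other strand, do occur in the printed windows of Il9 and Il5. A match describes the letters in the window and not a bound site, and the type 2 cluster is also known for control elements far outside such windows.

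Other secreted interleukins, colony stimulating factors and relatives were read from a list of 31 genes, all measured. Of these 4 rose and 0 fell, against 0.254% and 0.198% of all genes, and the median difference was 0.033. Besides Il24 and Il21, Il33 and Il17a passed. Il33, the gene of the alarmin that was also given to the cultures as protein, was at 6.22, 6.21 and 6.20 in controls and at 6.91, 6.76 and 7.06 in the arrays labelled Myc knockout. The controls were nearly identical and all below the other group, and Il33 rose 1.62-fold (limma's adjusted p = 0.0353). Il17a, the gene of a cytokine known from helper T cells and ILC3s, rose from 2.84 ± 0.17 to 3.79 ± 0.14 (limma's adjusted p = 0.0353), from below the array medians. Osm, which encodes the IL-6 family cytokine oncostatin M, was at 8.33, 8.26 and 8.27 in controls and at 8.53, 9.26 and 9.26 in the other group, and did not pass (0.73 ± 0.20, limma's adjusted p = 0.183). Ebi3, a subunit shared by IL-27 and IL-35, was at 5.58 ± 0.025 and 5.35 ± 0.058 (−0.24 ± 0.058, limma's adjusted p = 0.155). Without any 1 array, 0 of the 31 passed.

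Receptor chains for the 9 cytokines were measured for 15 of 16 listed genes; the other is not analysed here. Il9r, the IL-9 receptor gene, was at 7.24, 7.31 and 7.41 in controls and at 6.83, 6.71 and 6.77 in the arrays labelled Myc knockout. These values do not overlap and run opposite to those of Il9. Il9r fell by 0.55 ± 0.070 on the log2 scale (limma's adjusted p = 0.0405), a call lost under cyclic loess at −0.52 and without any 1 of the 6 arrays. No other chain passed, the median was 0.0089, and at an unadjusted p below 0.05 there were 2 higher chains and 3 lower ones of 15, against 6.97% and 7.91% of all genes. The groups did not overlap for 2 higher and 4 lower chains, against 9.25% and 10.6% of all genes. As 12 of the 15 are bright, the shares among bright genes are the closer ones. These were 7.76% higher and 13.8% lower at that unadjusted p, and 10.8% and 18.6% without overlap. Il10ra, the ligand-binding IL-10 receptor chain, differed by 0.28 ± 0.081 and Il2ra, the IL-2 receptor alpha chain, by 0.19 ± 0.059 (limma's adjusted p = 0.201 and 0.232). Csf2rb, the beta chain common to the IL-3, IL-5 and GM-CSF receptors, differed by −0.29 ± 0.079 and its close relative Csf2rb2 by −0.52 ± 0.16 (limma's adjusted p = 0.188 and 0.237); the pair are near-identical in sequence, so a probe set can share signal between them. Il4ra, the chain common to IL-4 and IL-13 signalling, differed by 0.080 ± 0.072, and Il5ra, Il13ra1 and Il13ra2 lay below the lower quartiles.

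Transcription factors and chromatin proteins known to act on these cytokine genes were measured for 33 of 35 listed genes; the rest are not analysed here. Irf4, a factor required for Il9 transcription in helper T cells, was at 7.08, 6.76 and 6.93 in controls and at 7.58, 7.75 and 7.79 in the arrays labelled Myc knockout. It rose by 0.78 ± 0.10 (limma's adjusted p = 0.0405) and was the 1 member of the list that rose. Bhlhe40 and its relative Bhlhe41, repressors that bind E-boxes, were the 2 that fell. Bhlhe40 went from 7.88, 7.70 and 7.46 to 6.44, 6.55 and 6.52, a drop of 1.18 ± 0.11, and Bhlhe41 fell by 1.24 ± 0.16 (limma's adjusted p = 0.0217 and 0.0405).

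The median of the transcription factor list was −0.10, with 10 positive and 23 negative differences. Over the 11595 bright genes the median was −0.030, with 4872 positive and 6723 negative differences. Before adjustment, p was below 0.05 for 3 higher genes and 9 lower ones, against 6.97% and 7.91% of all genes. The groups did not overlap for 5 higher and 11 lower genes of the 33, against 9.25% and 10.6% of all genes. Since 32 of the 33 are bright, the shares among the 11595 bright genes are the closer ones: 7.76% higher and 13.8% lower at that unadjusted p, and 10.8% higher and 18.6% lower without overlap. Among those that did not pass, Gata3, the factor that specifies ILC2s and acts on Il5 and Il13, differed by −0.25 ± 0.066, Stat6, which relays IL-4 and IL-13 signals, by −0.37 ± 0.057 and the AP-1 gene Fosl2 by −0.43 ± 0.079 (limma's adjusted p = 0.173, 0.0665 and 0.0915). Stat6 and Fosl2 passed in 3 and 2, respectively, of the 9 settings that kept all arrays. Without any 1 array, 0 of the 33 passed.

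**Figure D5:**
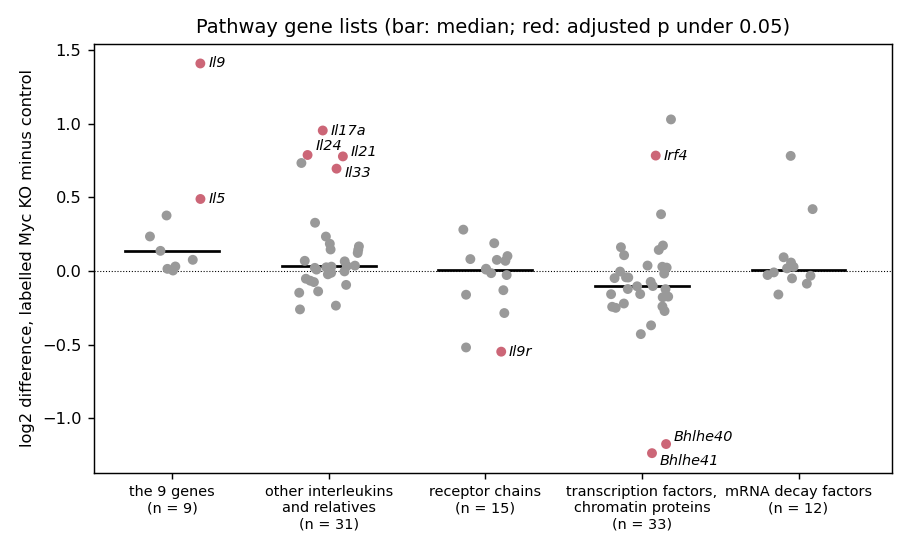
Log2 difference, arrays labelled Myc knockout minus control, of each measured gene (points) in the 9 cytokine genes and 4 related lists, with the list median as a bar and genes past the threshold in red and named. Il9r, Bhlhe40 and Bhlhe41 are the genes that fell, and Irf4, Il17a, Il24, Il21 and Il33 rose beside Il9 and Il5.

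The label of the cells was checked against markers. Gata3, Id2, Il7r, Icos, Klrg1 and Il2ra were at 7.57 or more in controls. Thy1, Il17rb and Ptgdr2, also ILC2 markers, were at 3.21, 2.09 and 2.36, below the array medians, and Rora and Kit lay between at 4.01 and 3.99. Of the 13 ILC2 markers measured, 3 were higher (Icos, Il2ra and Kit) and 3 lower (Gata3, Il7r and Ptprc) without overlap. The shares were 9.25% and 10.6% of all genes and 10.8% and 18.6% of bright genes. Of the 13, 0 passed. Several defining markers of other cells were below the array medians: Cd3e and Cd4 of T cells at 2.15 and 2.24, Cd79a of B cells at 1.92, Fcer1a and Cpa3 of mast cells at 1.13 and 1.47, Siglecf and Epx of eosinophils at 2.32 and 2.45, and Csf1r and Adgre1 of macrophages at 2.24 and 1.66 in controls. Other entries of these lists were bright. Of 12 T cell markers 7 were above the array medians, led in controls by Trbc2 (7.33), Cd3g (5.47), Cd8a (4.73) and Trbc1 (4.67). Of 11 mast cell and basophil markers 3 were, among them Hdc (5.97) and the basophil protease gene Mcpt8, and the NK cell marker Prf1 was at 7.40. Mcpt8 was at 7.53 in the arrays labelled Myc knockout, a difference of −0.47 ± 0.14 without overlap (limma's adjusted p = 0.207). Itgam, a myeloid integrin gene, was at 6.61 in controls and 5.99 in the other group, a difference of −0.63 ± 0.10 without overlap (limma's adjusted p = 0.0767), and passed in 2 of the 9 other settings that kept all arrays. Summed over each list on the linear scale, ILC2 markers spanned 12.84 to 12.90 in controls and 12.85 to 12.94 in the arrays labelled Myc knockout, and T cell markers 8.20 to 8.41 and 8.31 to 8.56 (log2). Mast cell and basophil markers spanned 8.37 to 8.61 and 7.97 to 8.43, NK cell and ILC1 markers 7.60 to 7.75 and 7.66 to 7.87, and B cell markers 4.97 to 5.01 and 4.92 to 5.04. The groups did not overlap for macrophage markers (7.18 to 7.36 and 6.80 to 6.99, with 2 of 8 genes above the array medians), eosinophil markers (5.74 to 5.78 and 5.66 to 5.69, 1 of 7) and ILC3 markers (4.73 to 4.93 and 5.25 to 5.33, 1 of 6, with Il17a in the list). Taken singly, 1 macrophage marker (Itgam) and 1 eosinophil marker (Ccl24, −0.24 ± 0.075) were lower without overlap, and 2 ILC3 markers were higher. Differences were positive for 3 of the 8 macrophage markers, 4 of the 7 eosinophil markers and all 6 ILC3 markers. Of the 6 ILC3 markers, 4 lay below every lower quartile and 1, Il17a, passed. The ILC2 sum, like those of macrophage and eosinophil markers, joins markers that were higher and lower. The part of these markers in the cytokine differences was not tested.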

How the data were processed

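Total RNA of 3 control arrays and 3 arrays labelled Myc knockout was compared, with groups taken from the sample titles. The authors deposited log2 values made with RMA, per the submitters' processing notes, which also name limma 3.14.4; RMA subtracts background, brings arrays to 1 distribution and summarises probes, so a shift common to all transcripts is removed. The array's version is not given in the sources used here, nor are its probe set definition and build. Of 25206 probe sets, 23185 had 1 gene symbol in the platform annotation, 0 several and 2021 none; a RefSeq table for GRCm38.p6 gave gene types and neighbours, and RefSeq promoter windows of the same build the sequences. The fit used lmFit and eBayes of limma 3.58.1 under R 4.3.3 (two-sided, without covariates), with no filter on level; the procedure was tested on simulated data. Arrays have no read depth, and their number limits the precision.

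The genes, lists and tests were chosen with earlier results of these data known. The text names all 9 cytokine genes, Myc, listed genes that passed or else had the smallest p, the brightest or defining markers, and the nearest measured gene on each side; Osm, Stat6, Fosl2, Il20, Il24 as a neighbour and other list entries were added as examples after their values were seen. Genes of like pattern were those with the smallest Euclidean distance over the 6 arrays after centring, among protein-coding genes of mean at or above the highest array median. Other settings tried were array weights, 2 prior variances, a replicate block, 2 scalings, 2 filters on dim genes, all probe sets, other thresholds and each array left out. Figures used matplotlib 3.10.9.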

Additional observations from a re-analysis of the deposited data

How the results depend on the processing

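All 9 cytokine differences were computed under other settings. Il9, Il5, Il10, Il13 and Il3 stayed positive in every setting run. Under a replicate block the differences were unchanged at 1.41 for Il9 and 0.49 for Il5, but limma called 0 genes in either direction, so 0 of the cytokine, receptor and transcription factor genes passed. Deviations from the group means correlated at −0.070, −0.012 and −0.017 between same-numbered arrays, so these values showed no sign of pairing. With so few arrays per group, they cannot decide whether same-numbered arrays were handled together. The labels do not say whether the shared replicate numbers mean pairs. With an intensity trend limma called 162 genes higher and 208 lower, among genes at or above the median gene 204 and 345, among those at or above the lower quartile gene 92 and 100, at an adjusted p under 0.10 185 and 228 and under 0.01 0 and 0, against 59 and 46. At an adjusted p under 0.01, 0 of the cytokine, receptor and transcription factor genes passed.

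With each array left out, 0 to 2 genes were higher and 0 to 1 lower, with 0 to 0 cytokine, receptor and transcription factor genes passing; such fits have fewer samples, and 1311 to 1572 genes were then higher at an unadjusted p under 0.05. Il9 ranged from 1.28 to 1.50 and Il5 from 0.47 to 0.52. Median centring left 1 cytokine gene called (Il5 at 0.46 was lost) and cyclic loess 0 receptor genes. Transcription factors called lower numbered 4 with the trend, above the median gene and at an adjusted p under 0.10. Signs turned for genes near 0. These were Il4 (−0.023 under median centring, −0.064 to 0.12 with an array left out), Csf2 (−0.011 under median centring, −0.023 under cyclic loess, −0.045 to 0.070), Il6 (−0.036 to 0.21) and Il2 (−0.0092 under cyclic loess). For these changes the cause was not tested. Il3, Csf2 and Il2 were too dim for either filter to keep and Il6 for the filter at the median, which gave no value for them.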

Other observations

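For each of the 5 bright cytokine genes, the 3 genes nearest in pattern over the arrays were taken. Such a nearest set exists for any gene. Among 10686 protein-coding genes of mean at or above the highest array median, the nearest to Il5 after centring were Mfsd2a, a lysolipid transporter gene, Olah, a thioesterase gene of fatty acid synthesis, and Gap43, with Euclidean distances of 0.0985, 0.114 and 0.128 on the log2 scale over 6 arrays. Those nearest to Il9 were farther away, with Hamp at 0.435, Lta at 0.457 and Atp6v0d2 at 0.493. All genes named here for Il5 and Il9 themselves passed as higher, which their choice by likeness to genes that passed largely fixed. Hamp and Gap43 averaged 3.30 and 3.29 in controls, under the highest array median of 3.34. They met the limit on level only through the arrays labelled Myc knockout, where they averaged 4.92 and 3.79. For Il10 they were Uqcr11 (0.139), Lztfl1 (0.140) and Npr3 (0.169), for Il13 Tnfaip1 (0.0542), Mgme1 (0.0549) and Tmem50b (0.0720), and for Il4 Peg10 (0.0906), Dennd6a (0.0942) and Atg10 (0.105).

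Of 12 genes for RNA-binding proteins and deadenylation factors known to act on cytokine mRNAs, limma called 0, with a median of 0.0035. The unadjusted p was below 0.05 for 1 higher gene and 1 lower one, near the 6.97% and 7.91% of all genes. All 12 are bright, and the shares among bright genes were 7.76% and 13.8%. Zfp36, which encodes tristetraprolin, a protein that destabilises AU-rich cytokine mRNAs, was at 7.96, 7.83 and 7.78 in controls and at 7.91, 8.86 and 9.14 in the arrays labelled Myc knockout. Zc3h12a, which encodes the RNase Regnase-1, differed by −0.16 ± 0.064. The AP-1 gene Jun averaged 5.29 ± 0.28 in controls and was at 5.62, 6.42 and 6.91 in the other group, and Junb at 7.79, 7.70 and 7.64 and at 7.80, 8.24 and 8.26. For Zfp36, Jun, Junb and Osm, replicate 1 of the arrays labelled Myc knockout was thus near the controls and replicates 2 and 3 were above them. These genes were singled out after their values were seen. On the same replicate 1, Il9, Il5, Il10, Il13, Il4 and Il6 also had their group's lowest value, which was above the controls for the first 4, below them for Il4 (6.41) and within their range for Il6 (3.04). Il3 and Csf2, both dim, had their group's highest value on that array, at 1.87 and 1.88. The array also had the highest median and the lowest upper quartile of the 6, at 3.34 and 5.69. Any link between these was not tested. Without that array the differences were 1.50 for Il9, 0.52 for Il5, 0.46 for Il10, 0.26 for Il13, 0.12 for Il4 and 0.20 for Il6.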
